A study of Mus musculus with 10 samples.

Results

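Contractile genes of smooth muscle encode the actin filament and the proteins that sit on it. The 10 genes described here are Acta2 and Actg2, the smooth muscle α- and γ-actins; Tagln, Cnn1, Cnn2 and Cald1, which encode the actin-binding proteins transgelin, calponin 1, calponin 2 and caldesmon; Tpm1 and Tpm2, which encode tropomyosins; Myl9, a regulatory light chain of non-striated myosin; and Tnnt2, cardiac troponin T. They were taken by name: each is the row of the count table whose NCBI mouse gene ID maps to the symbol. All 10 were found among 18103 genes, and all 10 passed the filter on low counts that 13149 genes passed.

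Many of these genes are known targets of serum response factor (SRF), a transcription factor that binds a short A/T-rich element, the CArG box. SRF works with coactivators. The myocardin-related factors MRTF-A and MRTF-B enter the nucleus when monomeric actin is assembled into filaments, and they drive cytoskeletal and contractile genes; myocardin does so in cardiac and smooth muscle. The ternary complex factors of the ELK family are instead activated by ERK, the kinase that MEK phosphorylates, and drive immediate early genes such as Egr1. α-Smooth muscle actin and transgelin are widely used markers of myofibroblasts and of cells that have gone through an epithelial-mesenchymal transition.

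The study sequenced RNA of mouse breast cancer cells at day 7 of culture, in 5 groups of 2 libraries. MTΔECad cells, mesenchymal breast cancer cells whose name denotes deletion of E-cadherin (gene Cdh1), were treated with rosiglitazone, an agonist of the adipogenic nuclear receptor PPARγ, or were controls. Py2T long term cells (Py2T-LT) were treated with BMP2 plus a MEK inhibitor, with the MEK inhibitor alone, or were controls. The protocol gives usual doses of 200 ng/ml for BMP2, 40 µM for the MEK inhibitor PD98059 and 2 µM for rosiglitazone, and control medium with DMSO. It also adds rosiglitazone after BMP2 when cancer cells are differentiated, but no Py2T-LT label names it, and neither its presence in those cultures nor that of TGF-β is given. Each cell type is 1 line, so anything that sets the lines apart besides the loss of E-cadherin cannot be told apart from it. The 2 libraries of a group come from 2 independent experiments, and no group with BMP2 alone was analysed here.

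The libraries held 14659987 to 17249199 counts. Replicates correlated at 0.9928 to 0.9948 (log2 CPM, the counts scaled to library size, over all tested genes), and libraries of the other line at 0.829 to 0.847. The Py2T-LT controls, the group that 3 of the 5 comparisons are set against, differed most between replicates: chi-square per gene was 16.4 there, against 5.27 to 7.58 in the other 4 groups. Replicates 1 and 2 had 4406 and 7696 CPM of Fn1, and 29.3 and 72.9 CPM of the actin-binding gene Palld. Cdh1 had 2.58 and 2.25 CPM in MTΔECad controls, against a mean of 33.8 ± 3.04 CPM in Py2T-LT controls (SD, n = 2), and which exons were deleted is not given, so these reads may lie outside the deleted part. The 4 mesenchymal markers Vim, Fn1, Cdh2 and Zeb1 summed to 7793 to 15962 CPM over the 10 libraries, and the 4 epithelial markers Cdh1, Epcam, Krt8 and Krt18 to 210 to 668 CPM. Over the 10 libraries the 4 endothelial markers summed to 0.268 to 1.56 CPM, and the 6 pericyte markers Rgs5, Cspg4, Notch3, Abcc9, Kcnj8 and Myh11 to 3.14 to 20.7 CPM. The 2 of 4 haematopoietic markers with a row summed to 2.85 to 8.21 CPM, and the 3 of 5 cardiac markers with a row to 0.563 to 2.01 CPM. No row was matched for 6 skeletal muscle markers. Epithelial, pericyte, myoepithelial and adipocyte markers differed between groups and are given beside the comparisons. Mesenchymal markers differed as well, and are given beside the comparison between the lines. With BMP2 plus the MEK inhibitor, and with the MEK inhibitor alone, 1 of these 4 rose against controls. Between those treatments 2 were higher and 1 lower with BMP2, and none passed with rosiglitazone. A count of 3, the floor used below, corresponds to 0.164 to 0.209 CPM. In bulk RNA, fewer cells of a type and less RNA per cell cannot be told apart.

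Promoters are shown for 4 of the genes, because they carry the sequence element by which SRF is known to act, or lack a match to it in the window. RefSeq promoters (GRCm38.p6, 250 bases before to 50 after the annotated start) were matched for 8 of the 10 genes, in 10 windows, since Cald1 and Tnnt2 have more than one; Actg2 and Tagln were not matched. An exact CArG box was found in 2 of the 10 windows, those of Myl9 and Cnn2, against 1.63% of all 32851 promoters of the same length. Allowing 1 G or C among the 6 middle bases added Acta2, which makes 3 windows, against 9.98% of all promoters. The letters CATTCC on either strand, the core of the element bound by TEAD factors, were in 4 windows (Tnnt2, Tpm1, Cald1 and Acta2), against 14.7% of all promoters. Both motifs were searched on both strands and do not overlap each other in these windows. A match describes the letters and is no measured binding. The 250 bases before the start are printed 5′ to 3′ on the gene's strand, with matches in capitals.
Acta2, chr19:34255374-34255623, minus strand: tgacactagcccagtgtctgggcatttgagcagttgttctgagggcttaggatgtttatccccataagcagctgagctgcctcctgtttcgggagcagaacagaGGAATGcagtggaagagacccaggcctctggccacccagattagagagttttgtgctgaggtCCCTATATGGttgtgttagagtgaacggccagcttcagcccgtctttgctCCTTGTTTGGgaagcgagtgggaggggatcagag
Myl9, chr2:156775214-156775463, plus strand: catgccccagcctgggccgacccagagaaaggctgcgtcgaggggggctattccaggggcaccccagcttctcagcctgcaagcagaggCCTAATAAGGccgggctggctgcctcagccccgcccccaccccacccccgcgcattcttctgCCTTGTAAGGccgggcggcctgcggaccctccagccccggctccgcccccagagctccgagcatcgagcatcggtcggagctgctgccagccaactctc
Cnn2, chr10:79988350-79988599, plus strand: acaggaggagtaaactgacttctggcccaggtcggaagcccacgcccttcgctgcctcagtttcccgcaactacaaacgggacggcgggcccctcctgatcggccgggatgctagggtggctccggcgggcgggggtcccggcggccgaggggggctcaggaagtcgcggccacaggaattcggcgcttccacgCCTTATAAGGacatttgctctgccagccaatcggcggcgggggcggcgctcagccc
Cnn1, chr9:22099003-22099252, plus strand: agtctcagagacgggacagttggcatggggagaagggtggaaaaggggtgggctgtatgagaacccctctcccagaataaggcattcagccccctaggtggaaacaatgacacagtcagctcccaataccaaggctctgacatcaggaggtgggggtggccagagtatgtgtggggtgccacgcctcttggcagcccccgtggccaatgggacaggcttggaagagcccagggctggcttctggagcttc
The Acta2 window holds CCCTATATGG and CCTTGTTTGG, starting at positions -84 and -34 from the annotated start, each with a single G or C in the middle, and GGAATG at -146. The Myl9 window holds the exact box CCTAATAAGG at -161 and CCTTGTAAGG, with a G in the middle, at -99. The Cnn2 window holds the exact box CCTTATAAGG at -56. The Cnn1 window holds no match to these letters. Positions count from the start used for each window, which is not always the outer end of the gene. For Acta2, Myl9 and Cnn1 that start lies inside the gene spans given below. These begin at 34255585 on the minus strand, 156775408 and 22099221, so part of the printed bases lies within them. The printed Cnn2 bases end just before its span.

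Over all groups together the contractile genes spanned more than 4 orders of magnitude, and their order differed between the lines. Per kilobase of exon, the scale used to set genes against each other, Acta2 led in MTΔECad controls with a mean level of 1088 CPM per kb. Cnn2 followed at 337, Tpm1 at 245, Tagln at 85.6, Cald1 at 69.9 and Myl9 at 56.7 CPM per kb, and then Actg2 at 8.39, Tpm2 at 3.05, Tnnt2 at 0.565 and Cnn1 at 0.0127 CPM per kb. The value of Cnn1 is 1 count in both libraries together, under the floor of 3 counts. The ranges of neighbours in this order did not overlap. In rosiglitazone-treated MTΔECad cells the order was the same except that Cald1, at 64.0 CPM per kb, stood above Tagln, at 51.8 CPM per kb.

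In Py2T-LT cells the order was led by broadly expressed genes, and counts per gene do not separate the isoforms of Tpm1 and Cald1. With BMP2 plus the MEK inhibitor, Tpm1 had a mean level of 217 CPM per kb, Cnn2 84.4, Cald1 34.1, Myl9 4.70 and Tpm2 2.52 CPM per kb, and the other 5 genes lay between 0.124 CPM per kb for Tagln and 0.775 CPM per kb for Acta2. With the MEK inhibitor alone, the same 5 genes led in the same order, from Tpm1 at 132 to Tpm2 at 5.73 CPM per kb. In controls, Tpm1 had 140, Cnn2 110, Cald1 24.4, Myl9 5.43 and Tpm2 2.95 CPM per kb, and Tnnt2 was lowest at 0.0558 CPM per kb. Neighbours whose ranges overlapped were Cnn1 and Tnnt2 with the combination; Actg2 and Tagln, Tagln and Tnnt2, and Tnnt2 and Cnn1 with the MEK inhibitor; and Acta2 and Tagln, and Cnn1 and Tnnt2, in controls. The length is the union of all annotated exons, which understates the level of genes with many isoforms, such as Tpm1, Cald1 and Tnnt2.

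**Figure D1:**
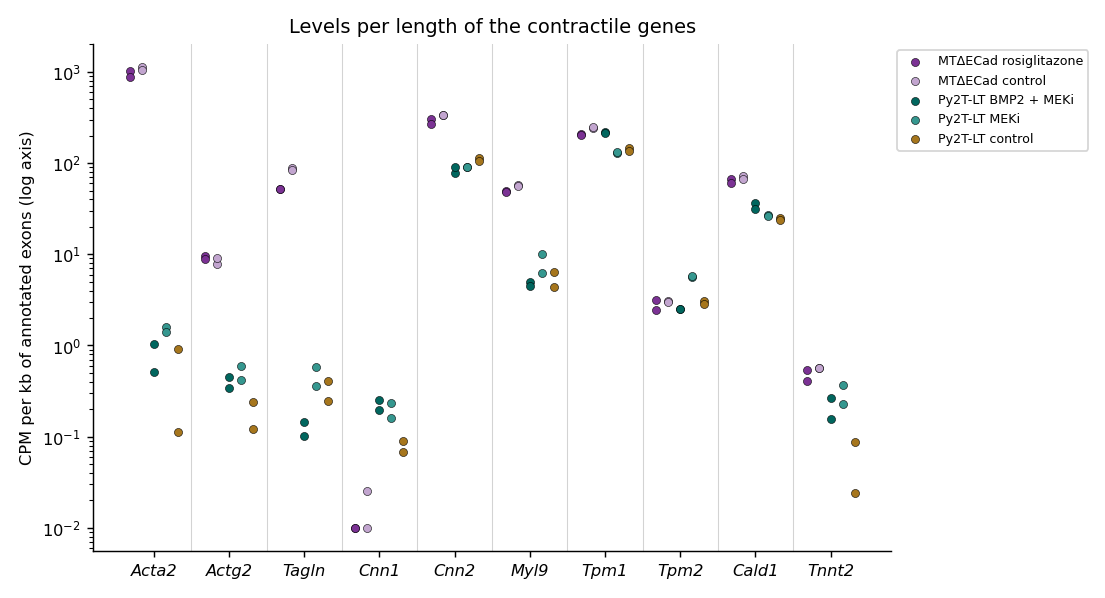
Level of the 10 contractile genes in the 5 groups, in CPM per kilobase of annotated exons on a log axis (points, 1 library each, 2 per group). Acta2 tops both MTΔECad groups, with a mean of 961 CPM per kb after rosiglitazone and 1088 CPM per kb in controls, and lies below Tpm2 in the 3 Py2T-LT groups; a level of 0 is drawn at 0.01.

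Summed over the 10 genes, the libraries held 4872 and 5368 CPM after rosiglitazone, 5775 and 6053 CPM in MTΔECad controls, 2021 and 2061 CPM after BMP2 plus the MEK inhibitor, 1424 and 1439 CPM after the MEK inhibitor and 1445 and 1535 CPM in Py2T-LT controls. Acta2 supplied 39.7% to 41.0% of the counts of the 10 genes in MTΔECad controls, against 0.0161% to 0.138% in Py2T-LT controls. Tpm1 supplied 26.2% to 27.6% in MTΔECad controls, against 60.5% to 61.3% in Py2T-LT controls.

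**Figure D2:**
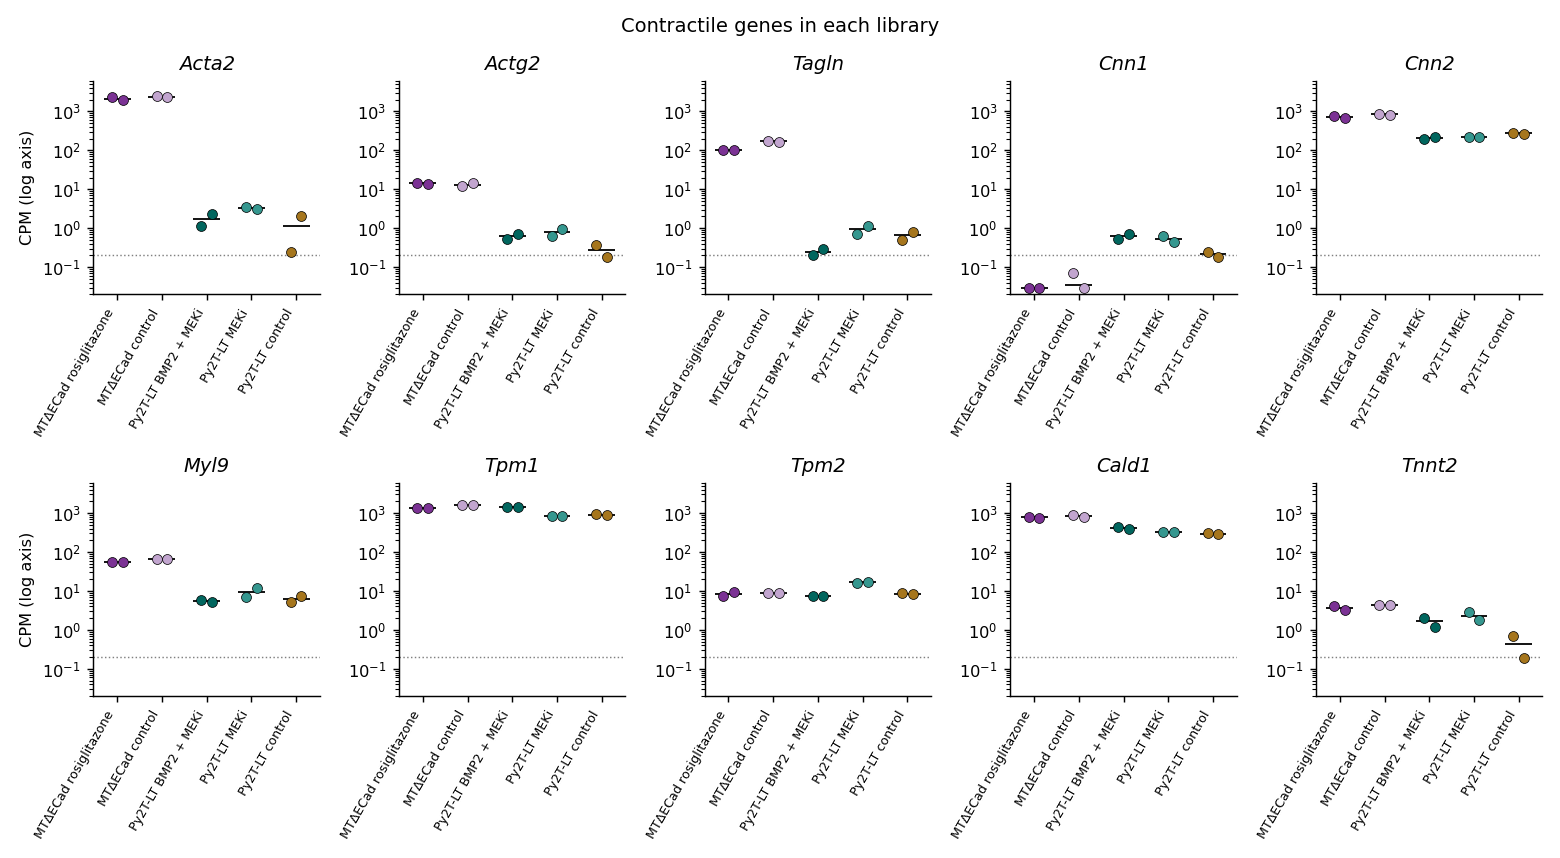
Level of each contractile gene in each of the 10 libraries, in CPM on a log axis (points, 1 library each; bars, group mean of 2). Acta2 lies at 1953 to 2484 CPM in the 4 MTΔECad libraries and at 0.246 to 3.49 CPM in the 6 Py2T-LT libraries, and Cnn1 stays below 0.7 CPM in all 10; a level of 0 is drawn at 0.03, and the dotted line marks 0.2 CPM, about 3 counts.

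MTΔECad controls were compared with Py2T-LT controls to show how the contractile genes differ between the lines before treatment. Of the 10 genes 8 were higher in MTΔECad cells and none lower by edgeR's quasi-likelihood test (adjusted p under 0.05), where 61% of the 13149 genes tested passed, 29.3% higher and 31.7% lower; none was lower at an unadjusted p under 0.05 or in DESeq2. Their median log2 fold change was 2.46, against -0.0292 over all genes tested. Acta2, Tagln and Actg2 stood furthest apart, and the broadly expressed Cnn2, Cald1 and Tpm1 less. Tpm2 and Cnn1 did not pass.

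Acta2 differed most, and the other smooth muscle actin was higher too. Acta2 (gene ID 11475, chromosome 19, 34240336 to 34255585, GRCm38) had 2484 and 2294 CPM in MTΔECad controls, against 0.246 and 2.00 CPM in Py2T-LT controls. These Py2T-LT levels are 4 and 32 counts, so the replicates themselves lie far apart, yet both are about a thousandth or less of either MTΔECad level. Acta2 was higher by 11.05 ± 0.41 on the log2 scale (SE; edgeR adjusted p = 1.27e-06); this was 10.22 without Py2T-LT control replicate 1 and 13.20 without replicate 2. Actg2 (gene ID 11468, chromosome 6, 83512909 to 83536251), the enteric smooth muscle actin, had 12.04 and 14.08 CPM in MTΔECad controls, against 0.370 and 0.187 CPM in Py2T-LT controls, higher by 5.51 ± 0.29 (edgeR adjusted p = 8.44e-13). The Py2T-LT value rests on 9 counts in both libraries together, and the counting interval of the ratio runs from 24.5 to 103 around 47.0.

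Among the actin-binding proteins, Tagln (gene ID 21345, chromosome 9, 45929628 to 45936058) had 174 and 167 CPM in MTΔECad controls, against 0.493 and 0.812 CPM in Py2T-LT controls. It was higher by 8.01 ± 0.16 (edgeR adjusted p = 8.53e-20). That SE understates the spread, since the Py2T-LT level rests on 21 counts. Against the same controls, the SE of Tagln with the MEK inhibitor was 0.35. The exons of Tagln overlap 2 genes on the other strand, Gm48529 over 1241 bases and Pcsk7 over 108 bases, and 58.4% of its 50-base words also occur in another gene. Whether the counting used strand is not given in the sources used here, and Gm48529 was not analysed here. Pcsk7, a proprotein convertase gene, had 69.6 and 68.4 CPM in MTΔECad controls, against 47.9 and 40.9 CPM in Py2T-LT controls, a log2 fold change of 0.63 ± 0.09 (edgeR adjusted p = 5.82e-06). Of the other genes, Acta2 shares 0.326% of its 50-base words with another gene, Tnnt2 0.123%, and the remaining 7 genes 0%.

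The 3 other actin-binding genes divided. Cnn2 (gene ID 12798, chromosome 10, 79988600 to 79995400), the calponin of non-muscle cells, had 836 and 824 CPM in MTΔECad controls, against 279 and 263 CPM in Py2T-LT controls, higher by 1.61 ± 0.08 (edgeR adjusted p = 4.53e-13). Cald1 (gene ID 109624, chromosome 6, 34598495 to 34775469), whose long form is typical of smooth muscle and whose short form is broadly expressed, had 878 and 804 CPM in MTΔECad controls, against 298 and 289 CPM in Py2T-LT controls, higher by 1.52 ± 0.08 (edgeR adjusted p = 1.14e-12). The counts per gene do not separate these forms. Cnn1 (gene ID 12797, chromosome 9, 22099221 to 22109221), the calponin most used as a marker of differentiated smooth muscle, had 1 and 0 counts in MTΔECad controls, against 4 and 3 counts in Py2T-LT controls. Their ratio of 0.152 (counting interval 0.00337 to 1.18) did not pass the test (edgeR adjusted p = 0.0901). Cnn1 thus stood at or near the floor in the controls of both lines, also in the line in which Acta2 and Tagln were highest.

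The genes of the thin filament's regulation and of the motor also split. Myl9 (gene ID 98932, chromosome 2, 156775408 to 156781657) had 67.1 and 64.6 CPM in MTΔECad controls, against 5.11 and 7.50 CPM in Py2T-LT controls, higher by 3.38 ± 0.18 (edgeR adjusted p = 2.26e-10). Tpm1 (gene ID 22003, chromosome 9, 67022590 to 67049672) had 1588 and 1595 CPM in MTΔECad controls, against 941 and 874 CPM in Py2T-LT controls, higher by 0.81 ± 0.07 (edgeR adjusted p = 2.40e-09). Tpm2 (gene ID 22004, chromosome 4, 43513726 to 43523583) had 9.05 and 8.70 CPM in MTΔECad controls, against 8.87 and 8.31 CPM in Py2T-LT controls, a log2 fold change of 0.05 ± 0.15 that did not pass (edgeR adjusted p = 0.811). Tnnt2 (gene ID 21956, chromosome 1, 135836315 to 135852268), cardiac troponin T, had 4.38 and 4.38 CPM in MTΔECad controls, against 0.678 and 0.187 CPM in Py2T-LT controls, higher by 3.31 ± 0.41 (edgeR adjusted p = 6.37e-07). This value was 4.49 and 2.68 without Py2T-LT control replicates 1 and 2. For Acta2, Actg2, Tagln, Cnn2, Myl9, Tpm1, Cald1 and Tnnt2 both MTΔECad libraries lay above both Py2T-LT libraries, for Cnn1 both lay below, and for Tpm2 the groups overlapped; over all genes 38.7% lay wholly above and 41.4% wholly below.

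**Figure D3:**
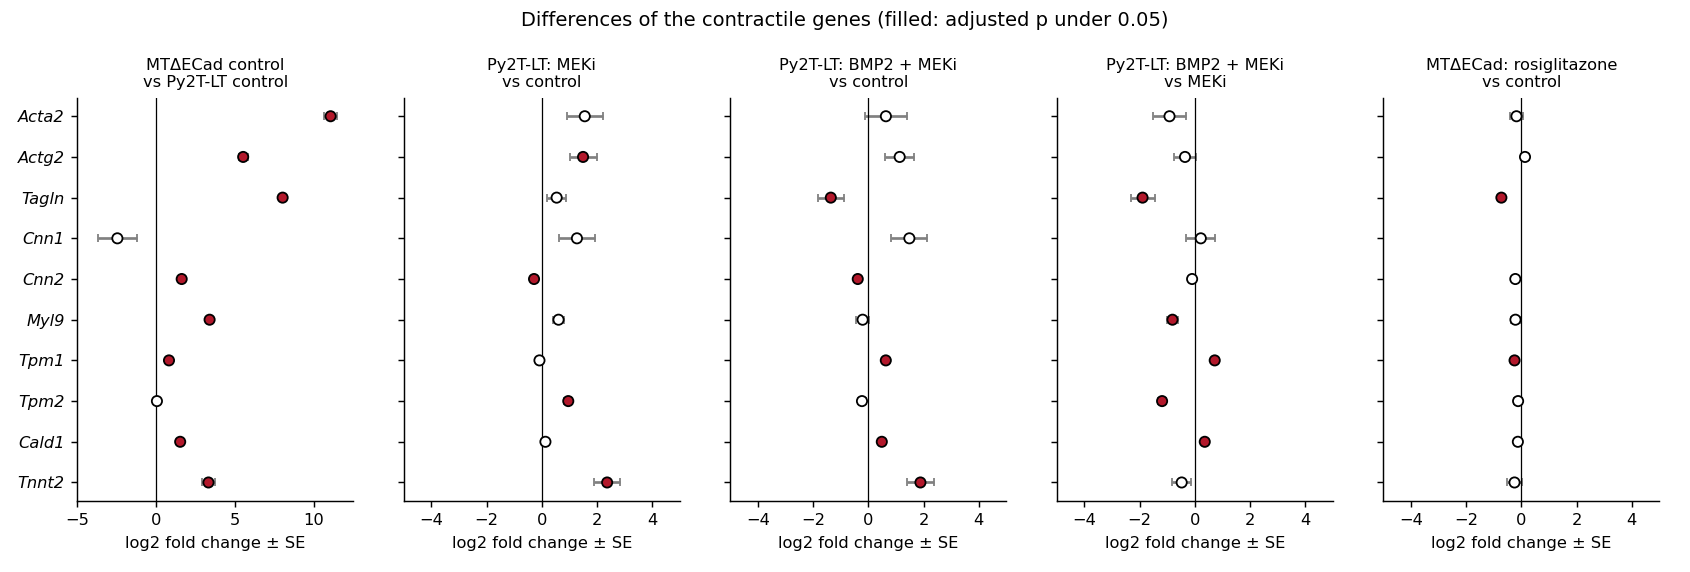
Log2 fold change of each contractile gene in the 5 comparisons (points, edgeR; bars, 1 SE; filled points passed at an adjusted p under 0.05), without fits in which a group had 0 counts; the panel between the lines has a wider axis. Acta2 at 11.05, Tagln at 8.01 and Actg2 at 5.51 stand furthest from 0 between the lines, and Tpm1 at 0.63 and Tagln at -1.36 lie on either side of 0 after BMP2 plus the MEK inhibitor. The bars between the lines understate the spread of genes with few counts in Py2T-LT controls. The fall of Tagln after BMP2 plus the MEK inhibitor rests on 8 counts against 21. Its call was lost with DESeq2 (adjusted p = 0.0653) and on leaving out some single libraries.

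Srf itself and most other cytoskeletal SRF targets tested were also higher in MTΔECad controls, although a few were lower. Srf had 103 and 96.1 CPM in MTΔECad controls, against 42.8 and 34.9 CPM in Py2T-LT controls, higher by 1.36 ± 0.11 (edgeR adjusted p = 3.12e-09). Mrtfa, the gene of its coactivator MRTF-A, fell by 0.45 ± 0.13 (edgeR adjusted p = 0.00499, and 0.0794 without MTΔECad control replicate 2 and 0.146 without Py2T-LT control replicate 2), and Mrtfb gave 0.04 ± 0.12 (edgeR adjusted p = 0.779). On leaving out Py2T-LT control replicate 2, Mrtfb was higher by 0.31 and passed (edgeR adjusted p = 0.018). Myocd, the gene of myocardin, had 0 counts in all 10 libraries. Elk3, a ternary complex factor of the ELK family, fell by 1.31 ± 0.08 (edgeR adjusted p = 5.05e-12).

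Of 30 tested cytoskeletal targets 20 were higher and 3 lower in MTΔECad controls, with a median of 0.79. Lmod1, the leiomodin that nucleates actin filaments in smooth muscle, had a mean of 328 ± 8.82 CPM in MTΔECad controls, against 0.651 ± 0.125 CPM in Py2T-LT controls (SD, n = 2 each), higher by 8.96 ± 0.14 (edgeR adjusted p = 7.56e-21). Synm, the intermediate filament gene synemin, was higher by 5.24 ± 0.16 and the LIM domain gene Fhl1 by 4.78 ± 0.14. Myh11, the smooth muscle myosin heavy chain and with Cnn1 a marker of the differentiated state, had a mean of 0.233 CPM in MTΔECad controls, against 0.529 CPM in Py2T-LT controls (log2 fold change -1.17 ± 0.69, edgeR adjusted p = 0.15). Of 8 immediate early genes 4 were higher and 1 lower, led by Nr4a1 at 1.75 ± 0.15, Fosb at -1.33 ± 0.42 and Junb at 1.12 ± 0.20; the edgeR adjusted p of Fosb, 0.00921, became 0.0834 when MTΔECad control replicate 1 was left out and 0.0735 when Py2T-LT control replicate 1 was, and DESeq2 gave 0.067.

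A few striated muscle genes besides Tnnt2 were detected. Of 19 sarcomere genes 14 had a row and 5 were tested, of which 2 were higher and 2 lower in MTΔECad controls. Tnnc1, the troponin C of slow and cardiac muscle, had a mean of 5.53 CPM in MTΔECad controls, against 1.08 CPM in Py2T-LT controls, and was higher by 2.34 ± 0.27 (edgeR adjusted p = 2.33e-07). Ttn, titin, had 1 count in MTΔECad controls, against 58 counts in Py2T-LT controls, a ratio of 0.0183 (counting interval 0.000456 to 0.106). Tnni3, cardiac troponin I, had 3 counts in MTΔECad controls, against 27 counts in Py2T-LT controls, a ratio of 0.118 (counting interval 0.0229 to 0.384); its adjusted p of 0.01 in edgeR became 0.0966 without MTΔECad control replicate 2.

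Myoepithelial cells and pericytes also express smooth muscle actin, so their markers are given beside this comparison. The 6 markers Krt5, Krt14, Krt17, Trp63, Oxtr and Myh11 summed to 171 and 184 CPM in MTΔECad controls, against 17.4 and 20.3 CPM in Py2T-LT controls. Krt5, a defining basal keratin, was at 0 in both groups, and Trp63 supplied a mean of 148 CPM in MTΔECad controls, against 6.48 CPM in Py2T-LT controls. Trp63, Oxtr, Krt14 and Myh11 are not confined to that cell type. The 6 pericyte markers, which share Myh11, summed to 15.1 to 20.7 CPM in MTΔECad controls, against 3.14 to 4.37 CPM in Py2T-LT controls. Most of that came from Notch3, at a mean of 17.4 CPM in MTΔECad controls, against 0.588 CPM in Py2T-LT controls; Abcc9 and Kcnj8 were lower in MTΔECad controls, and Cspg4 was at 0 in both groups. The 4 epithelial markers summed to 273 to 285 CPM in MTΔECad controls, against 618 to 668 CPM in Py2T-LT controls, and 3 of them were lower. The 4 mesenchymal markers summed to 13343 to 15962 CPM in MTΔECad controls, against 7793 to 10634.5 CPM in Py2T-LT controls. Of these 4 markers 3 were higher in MTΔECad controls. The part of these markers in the result was not tested.

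The MEK inhibitor alone was compared with Py2T-LT controls. Of the 10 contractile genes 3 were higher and 1 lower, where 16.5% of all genes passed, 8.98% higher and 7.52% lower. Their median log2 fold change was 0.78, against 0.011 over all genes tested. Of the genes above 0.78, Acta2, Actg2, Cnn1 and Tnnt2 had 36, 9, 7 and 14 counts in controls, and Tpm2 had 277. The 3 most abundant genes, Cnn2, Tpm1 and Cald1, gave -0.28, -0.09 and 0.13. The 10 genes summed to 1424 and 1439 CPM with the inhibitor, against 1535 and 1445 CPM in controls. Tpm2 and Tnnt2, both proteins of the thin filament, rose with the smallest adjusted p.

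Tpm2 had 16.35 and 16.98 CPM with the MEK inhibitor, against 8.87 and 8.31 CPM in controls, and rose by 0.96 ± 0.14 (edgeR adjusted p = 4.95e-05). Tnnt2 had 2.84 and 1.75 CPM with the MEK inhibitor, against 0.678 and 0.187 CPM in controls, and rose by 2.36 ± 0.46 (edgeR adjusted p = 8.25e-04). Both inhibitor libraries lay above both controls for these genes, although Tnnt2 was low throughout, at 11 and 3 counts in controls, and its rise was 3.54 and 1.73 without Py2T-LT control replicates 1 and 2.

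Actg2 also passed, with 0.646 and 0.931 CPM with the MEK inhibitor, against 0.370 and 0.187 CPM in controls (1.49 ± 0.49, edgeR adjusted p = 0.0416). That call rests on 27 counts against 9, a ratio of 2.87 (counting interval 1.31 to 6.93.) It was lost without MEK inhibitor replicate 2 (adjusted p = 0.284), without Py2T-LT control replicate 2 (0.311), with the compared groups fitted alone (0.114) and with DESeq2 (0.0773). Cnn2 fell by 0.28 ± 0.08, at 223 and 222 CPM with the MEK inhibitor, against 279 and 263 CPM in controls (edgeR adjusted p = 0.0193). The fall of Cnn2 did not pass without MEK inhibitor replicate 1 (0.0853) or 2 (0.103) or without Py2T-LT control replicate 1 (0.116).

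The other 6 genes did not pass. Acta2 had 3.49 and 3.12 CPM with the MEK inhibitor, against 0.246 and 2.00 CPM in controls, and its log2 fold change was 1.55 ± 0.66 (edgeR adjusted p = 0.198). Both inhibitor libraries were higher, and the result turned on the control of 32 counts: without Py2T-LT control replicate 2 the value was 3.70 and passed (adjusted p = 1.34e-05), and without a low-count filter it passed as well (3.88e-08). Myl9 had 7.17 and 11.8 CPM with the MEK inhibitor, against 5.11 and 7.50 CPM in controls (0.60 ± 0.21, edgeR adjusted p = 0.064); it passed without MEK inhibitor replicate 1 (0.00143), without Py2T-LT control replicate 2 (0.00957), without a filter (0.00107) and with DESeq2 (0.0287). Tagln, at 0.711 and 1.15 CPM against 0.493 and 0.812 CPM in controls, gave 0.53 ± 0.35 (edgeR adjusted p = 0.407), and Cnn1, at 10 and 8 counts against 4 and 3 counts, 1.27 ± 0.67 (0.23). Tpm1, at 847 and 861 CPM against 941 and 874 CPM in controls, gave -0.09 ± 0.07 (edgeR adjusted p = 0.469), and Cald1, at 322 and 320 CPM against 298 and 289 CPM in controls, 0.13 ± 0.08 (0.336). The libraries did not overlap for 8 of the 10 genes, 6 higher and 2 lower with the inhibitor; over all genes 28.9% lay wholly above and 24.7% wholly below.

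Among related genes, the immediate early gene Egr1, a target of SRF with the ternary complex factors, fell by 1.51 ± 0.21 with the MEK inhibitor (edgeR adjusted p = 2.65e-04), at a mean of 8.62 ± 1.13 CPM against 24.7 ± 5.95 CPM in controls (SD, n = 2 each). It was the single one of 8 such genes that passed. Of 30 cytoskeletal targets 6 rose and 3 fell (median -0.0048). Synm rose by 1.66 ± 0.22, with 4.07 and 4.38 CPM with the inhibitor, against 1.66 and 1.00 CPM in controls, and the LIM protein gene Csrp2 rose by 1.04 ± 0.14. The actin filament gene Nexn rose by 1.24 ± 0.33 (edgeR adjusted p = 0.0128), a call lost without MEK inhibitor replicate 2 (0.148), Py2T-LT control replicate 2 (0.0731) and with DESeq2 (0.0553).

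With the MEK inhibitor Srf rose by 0.40 ± 0.11 (edgeR adjusted p = 0.0201, and 0.227 without MEK inhibitor replicate 1 and 0.248 without Py2T-LT control replicate 2). Elk3 rose by 0.28 ± 0.07 (edgeR adjusted p = 0.0113, and 0.157 without MEK inhibitor replicate 2 and 0.164 without Py2T-LT control replicate 2). Mrtfa gave -0.02 ± 0.13 and Mrtfb -0.15 ± 0.12 (edgeR adjusted p = 0.941 and 0.457). Mrtfb passed downwards without Py2T-LT control replicate 1, at -0.38 (adjusted p = 0.011). None of 5 tested sarcomere genes passed in edgeR or DESeq2, and 1 had an unadjusted p under 0.05.

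BMP2 plus the MEK inhibitor was set against Py2T-LT controls too, so this comparison and the previous one share their control libraries. Of the 10 contractile genes 3 rose and 2 fell, where 38.5% of all genes passed, 19.1% higher and 19.4% lower. Their median log2 fold change was 0.56, against 0.0017 over all genes tested. The broadly expressed genes Tpm1 and Cald1 rose, and Cnn2 fell.

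Tpm1 had 1409 and 1401 CPM with the combination, against 941 and 874 CPM in controls, and rose by 0.63 ± 0.07 (edgeR adjusted p = 2.41e-07). Cald1 had 442 and 380 CPM with the combination, against 298 and 289 CPM in controls, and rose by 0.49 ± 0.08 (edgeR adjusted p = 5.21e-05). Cnn2 had 193 and 223 CPM with the combination, against 279 and 263 CPM in controls, and fell by 0.38 ± 0.08 (edgeR adjusted p = 7.25e-04). For these 3 genes, which are the most abundant of the 10 in Py2T-LT cells, the groups did not overlap.

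The low genes moved less surely. Tnnt2 had 2.08 and 1.22 CPM with the combination, against 0.678 and 0.187 CPM in controls, and rose by 1.89 ± 0.49 (edgeR adjusted p = 0.00421). The rise of Tnnt2 was 1.46 and lost its call on leaving out BMP2 plus MEK inhibitor replicate 1 (adjusted p = 0.075), was 1.25 and lost it on leaving out Py2T-LT control replicate 2 (0.07), and was 3.06 on leaving out control replicate 1. Tagln had 0.201 and 0.291 CPM with the combination, against 0.493 and 0.812 CPM in controls, and fell by 1.36 ± 0.48 (edgeR adjusted p = 0.0393). The Tagln call rests on 8 counts against 21, a ratio of 0.382 (counting interval 0.146 to 0.898), and was lost without BMP2 plus MEK inhibitor replicate 1 (0.178) or 2 (0.0792), without Py2T-LT control replicate 2 (0.316) and with DESeq2 (0.0653).

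Acta2 had 1.14 and 2.27 CPM with the combination, against 0.246 and 2.00 CPM in controls, and the groups overlapped. Its log2 fold change of 0.63 ± 0.76 did not pass (edgeR adjusted p = 0.569); it was -0.20 without Py2T-LT control replicate 1, and 2.78 and past the threshold without replicate 2 (adjusted p = 5.84e-04). Actg2, at 0.536 and 0.698 CPM against 0.370 and 0.187 CPM in controls, gave 1.13 ± 0.52 (edgeR adjusted p = 0.0956). Cnn1, at 8 and 12 counts against 4 and 3 counts, gave 1.48 ± 0.65 (edgeR adjusted p = 0.0803). Myl9, at 5.76 and 5.17 CPM against 5.11 and 7.50 CPM in controls, gave -0.21 ± 0.23 (edgeR adjusted p = 0.513), and Tpm2, at 7.37 and 7.27 CPM against 8.87 and 8.31 CPM in controls, -0.23 ± 0.16 (0.259). The libraries did not overlap for 8 genes, 5 higher and 3 lower with the combination; over all genes 34.3% lay wholly above and 32.9% wholly below.

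Among related genes, 5 of 8 immediate early genes fell with the combination and 1 rose. Egr1 fell by 2.92 ± 0.25 and Egr2 by 2.02 ± 0.25, while Junb rose by 1.47 ± 0.20 (edgeR adjusted p = 7.39e-07, 5.71e-06 and 9.00e-04). Of 30 cytoskeletal targets 7 rose and 8 fell (median -0.13). Synm, with 19.1 and 20.1 CPM against 1.66 and 1.00 CPM in controls, rose by 3.87 ± 0.17. Mylk, the kinase that phosphorylates myosin light chains such as Myl9, rose by 2.07 ± 0.31 and Fhl1 by 1.59 ± 0.14. Mylk was low throughout, at 42 and 55 counts with the combination, against 9 and 14 counts in controls.

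Srf, with 52.2 and 58.5 CPM with the combination against 42.8 and 34.9 CPM in controls, rose by 0.51 ± 0.11 (edgeR adjusted p = 0.00128). Mrtfa rose by 0.41 ± 0.12 (edgeR adjusted p = 0.0123), a call lost on leaving out BMP2 plus MEK inhibitor replicate 2 (0.123) or Py2T-LT control replicate 1 (0.209), and Mrtfb gave 0.07 ± 0.12 (0.667), which passed at 0.34 without Py2T-LT control replicate 2 (0.0165). Of 5 sarcomere genes 1 passed, the fast troponin I gene Tnni2 at 1.09 ± 0.35 (edgeR adjusted p = 0.0168, and 0.0923 without BMP2 plus MEK inhibitor replicate 2, 0.15 without Py2T-LT control replicate 1 and 0.0868 with DESeq2).

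The combination was also compared directly with the MEK inhibitor alone, 2 groups whose labels differ in BMP2. Whether the combination cultures also held rosiglitazone, which the protocol adds after BMP2, is not given. The part of BMP2 by itself was therefore not tested. Of the 10 contractile genes 2 rose and 3 fell, where 37.3% of all genes passed, 17.9% higher and 19.4% lower. Their median log2 fold change was -0.42, against 0.0051 over all genes tested. The sum of the 10 genes was higher, at 2061 and 2021 CPM with the combination, against 1424 and 1439 CPM with the inhibitor. The 2 tropomyosin genes went in opposite directions: Tpm1 rose and Tpm2 fell.

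Tpm1 had 1409 and 1401 CPM with the combination, against 847 and 861 CPM with the MEK inhibitor, and rose by 0.72 ± 0.07 (edgeR adjusted p = 3.94e-08). Tpm2 had 7.37 and 7.27 CPM with the combination, against 16.35 and 16.98 CPM with the MEK inhibitor, and fell by 1.19 ± 0.14 (edgeR adjusted p = 1.03e-06). The libraries within each group lay close together for both genes, and no library of one group reached the other. Leaving out any 1 of the 10 libraries left Tpm1 between 0.71 and 0.73 and Tpm2 between -1.21 and -1.16.

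Cald1 had 442 and 380 CPM with the combination, against 322 and 320 CPM with the MEK inhibitor, and rose by 0.36 ± 0.08 (edgeR adjusted p = 0.00136), a value that became 0.23 and lost its call on leaving out BMP2 plus MEK inhibitor replicate 1 (0.0558). Tagln had 0.201 and 0.291 CPM with the combination, against 0.711 and 1.15 CPM with the MEK inhibitor, and fell by 1.90 ± 0.43 (edgeR adjusted p = 0.00152, and 0.071 without MEK inhibitor replicate 2). That is 8 counts against 32, a ratio of 0.262 (counting interval 0.104 to 0.582.) Myl9 had 5.76 and 5.17 CPM with the combination, against 7.17 and 11.8 CPM with the MEK inhibitor, and fell by 0.81 ± 0.21 (edgeR adjusted p = 0.00722). The fall of Myl9 was 0.40 and did not pass without MEK inhibitor replicate 2 (0.158), nor without BMP2 plus MEK inhibitor replicate 2 (0.0868).

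The remaining 5 genes did not pass against the MEK inhibitor. Acta2, at 1.14 and 2.27 CPM with the combination against 3.49 and 3.12 CPM with the inhibitor, gave -0.92 ± 0.59 (edgeR adjusted p = 0.294). The groups did not overlap, and Acta2 passed at about the same size when the spread was estimated without a low-count filter (4.18e-04), from the compared groups alone (0.00448) or without Py2T-LT control replicate 1 (0.00548) or 2 (0.00546). Actg2 gave -0.36 ± 0.41, Cnn1 0.21 ± 0.53, Cnn2 -0.10 ± 0.08 and Tnnt2 -0.48 ± 0.35 (edgeR adjusted p = 0.537, 0.79, 0.369 and 0.31), and for each of these the groups overlapped. Over all genes 33.3% lay wholly above and 33.9% wholly below, against 2 and 4 of the 10.

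Of 30 cytoskeletal targets 6 rose and 9 fell with the combination against the MEK inhibitor (median -0.12). Synm rose by 2.21 ± 0.14 and Mylk by 1.85 ± 0.30. Mylk had 42 and 55 counts with the combination, against 16 and 12 counts with the inhibitor. Csrp2 fell by 1.29 ± 0.15, at a mean of 13.7 ± 0.262 CPM against 33.5 ± 5.71 CPM with the inhibitor (SD, n = 2 each). Of 8 immediate early genes 4 fell and 1 rose: Egr2 fell by 1.82 ± 0.26 and Nr4a1 by 1.52 ± 0.18, and Junb rose by 1.66 ± 0.20. Mrtfa rose by 0.43 ± 0.12 (edgeR adjusted p = 0.00877, and 0.102 without replicate 2 of either group), and Elk3 fell by 0.36 ± 0.07. Srf gave 0.11 ± 0.11 (edgeR adjusted p = 0.464) and Mrtfb 0.22 ± 0.12 (0.151), which passed on leaving out Py2T-LT control replicate 1 (0.0416) or 2 (0.0426). None of 5 sarcomere genes passed in edgeR or DESeq2, 1 had an unadjusted p under 0.05, and without a low-count filter 1 passed.

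**Figure D4:**
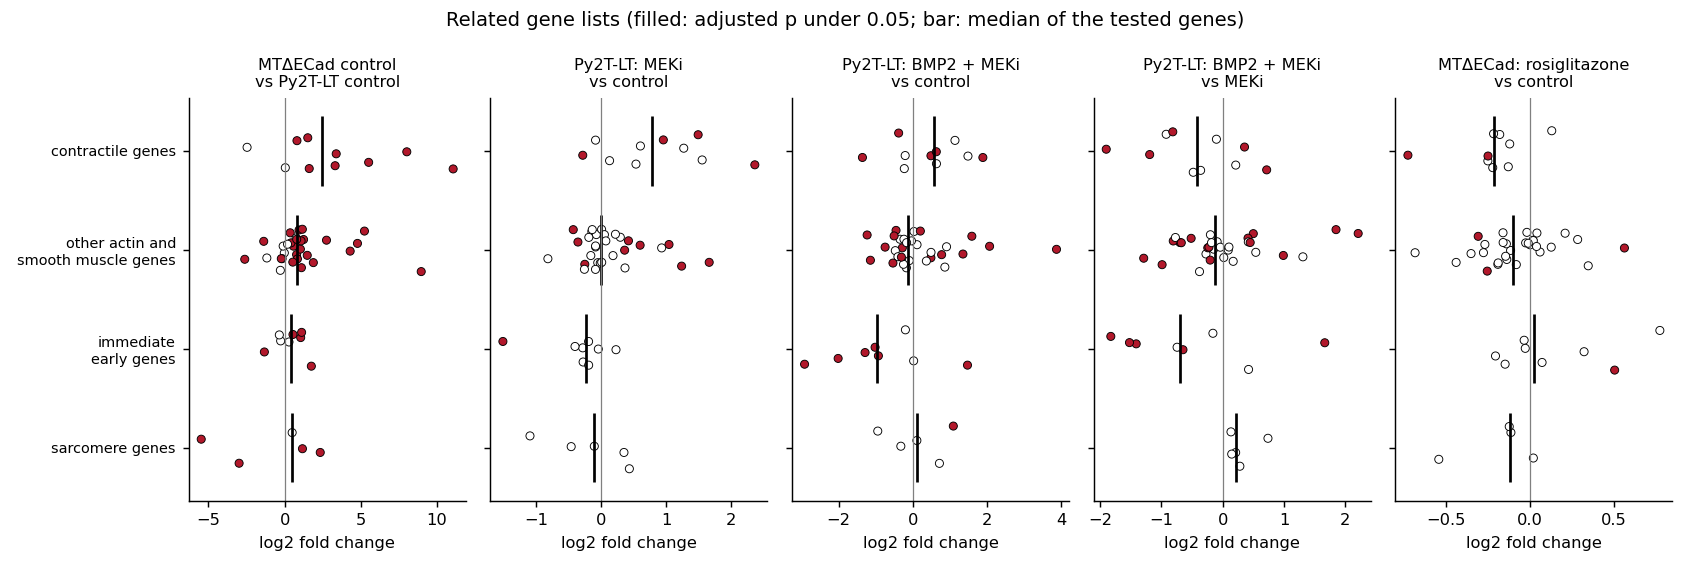
Log2 fold changes of the contractile genes and of 3 related lists (other cytoskeletal targets, immediate early genes, sarcomere genes) in the 5 comparisons, 1 point per tested gene without those at 0 counts in a group; the line is the list's median, filled points passed at an adjusted p under 0.05, and the axes differ. Cytoskeletal targets have a median of 0.79 between the lines, and immediate early genes one of -0.98 after BMP2 plus the MEK inhibitor against controls.

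Markers of 4 cell types moved with these treatments. The 5 adipocyte markers Adipoq, Plin1, Cidec, Fabp4 and Lep summed to 305 and 335 CPM with the combination, 168 and 202 CPM with the MEK inhibitor and 2.65 and 5.87 CPM in Py2T-LT controls, with Lep at 0 in all 6 libraries. The 6 myoepithelial markers summed to 195 and 198 CPM with the combination, 29.96 and 34.50 CPM with the MEK inhibitor and 17.4 and 20.3 CPM in controls, and Krt5 was at 0 with the combination and in controls. Most of the sum with the combination came from Krt14, at a mean of 97.5 CPM, and Oxtr, at 89.4 CPM. The 4 epithelial markers summed to 210 to 224 CPM with the combination, 568 to 651 CPM with the MEK inhibitor and 618 to 668 CPM in controls. With the combination against controls Krt8 fell by 2.35 ± 0.09, Krt18 by 1.31 ± 0.09 and Cdh1 by 1.02 ± 0.14, and with the inhibitor alone Cdh1 fell by 1.52 ± 0.15. The 6 pericyte markers summed to 12.9 to 16.7 CPM with the combination, 6.08 to 6.66 CPM with the inhibitor and 3.14 to 4.37 CPM in controls. Rgs5 had 160 and 252 counts with the combination, 3 and 4 counts with the inhibitor and 0 in both controls (edgeR adjusted p = 2.75e-11 for the combination against controls), whereas Notch3 and Abcc9 fell with the combination against controls. The part of these marker lists in the results was not tested.

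Rosiglitazone was compared with MTΔECad controls. Of the 10 contractile genes none rose and 2 fell by edgeR, where 13.2% of all genes passed, 7.95% higher and 5.26% lower; DESeq2 also called 2, and at an unadjusted p under 0.05 none rose and 3 fell. Over the 9 genes with counts in both groups the median log2 fold change was -0.21, against -0.0233 over all genes tested. Tagln fell most, and Acta2 stayed the most abundant of the 10.

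Tagln had 104 and 102 CPM with rosiglitazone, against 174 and 167 CPM in controls, and fell by 0.72 ± 0.09 (edgeR adjusted p = 3.25e-06). Both treated libraries lay well below both controls, and leaving out any 1 library left the value between -0.76 and -0.69. Pcsk7, which overlaps it on the other strand, had 62.8 and 65.3 CPM with rosiglitazone, against 69.6 and 68.4 CPM in controls (-0.11 ± 0.09, edgeR adjusted p = 0.559). Tpm1 had 1349 and 1330 CPM with rosiglitazone, against 1588 and 1595 CPM in controls, and fell by 0.25 ± 0.07 (edgeR adjusted p = 0.0191). The Tpm1 groups did not overlap, but the call was lost without rosiglitazone replicate 1 (0.0848) or 2 (0.12) and without MTΔECad control replicate 1 (0.11) or 2 (0.118).

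The abundant α-actin did not pass: Acta2 had 2270 and 1953 CPM with rosiglitazone, against 2484 and 2294 CPM in controls, and its log2 fold change was -0.18 ± 0.23 (edgeR adjusted p = 0.74). Actg2, at 14.8 and 13.9 CPM against 12.04 and 14.08 CPM in controls, gave 0.13 ± 0.16 (edgeR adjusted p = 0.703). Cnn2, at 758 and 668 CPM against 836 and 824 CPM in controls, gave -0.22 ± 0.08 (edgeR adjusted p = 0.0799), and passed without rosiglitazone replicate 1 (0.0351). Myl9, at 56.9 and 56.5 CPM against 67.1 and 64.6 CPM in controls, gave -0.21 ± 0.15 (edgeR adjusted p = 0.441), and Cald1, at 804 and 737 CPM against 878 and 804 CPM in controls, -0.13 ± 0.08 (0.377). Tpm2 gave -0.12 ± 0.16 and Tnnt2 -0.25 ± 0.28 (edgeR adjusted p = 0.734 and 0.68). Cnn1 had 0 and 0 counts with rosiglitazone, against 1 and 0 counts in controls, under the floor of 3 counts in either group, so no fold is given. Of the 10 genes 7 had both treated libraries below both controls and none had both above; over all genes 28.6% lay wholly below and 22.9% wholly above.

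Related genes changed little with rosiglitazone. Of 30 cytoskeletal targets 1 rose and 2 fell (median -0.0966). Myh10, non-muscle myosin heavy chain IIB, rose by 0.56 ± 0.08 (edgeR adjusted p = 4.59e-05). Csrp1 fell by 0.31 ± 0.08 (edgeR adjusted p = 0.00855, and 0.131 without rosiglitazone replicate 2 and 0.0681 without MTΔECad control replicate 1). The third calponin gene, Cnn3, fell by 0.25 ± 0.07 (edgeR adjusted p = 0.0211, with 0.0823 and 0.118 without rosiglitazone replicates 1 and 2, and 0.202 without MTΔECad control replicate 2).

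With rosiglitazone Srf gave 0.04 ± 0.11, Mrtfa -0.14 ± 0.14 and Mrtfb -0.05 ± 0.12 (edgeR adjusted p = 0.909, 0.598 and 0.89). Of 8 immediate early genes Nr4a1 rose by 0.51 ± 0.13 (edgeR adjusted p = 0.0137, and 0.0969 without rosiglitazone replicate 2 and 0.172 without MTΔECad control replicate 1), and none of 5 sarcomere genes passed in edgeR or DESeq2 or had an unadjusted p under 0.05. The adipocyte markers summed to 1579 and 1768 CPM with rosiglitazone, against 22.5 and 25.8 CPM in controls, and the myoepithelial markers to 221 and 238 CPM, against 171 and 184 CPM in controls, with Krt5 at 0 in both groups. Within that sum Krt14 rose, to a mean of 62.9 CPM with rosiglitazone against 9.37 CPM in controls, and so did Oxtr, at 65.3 CPM against 20.04 CPM in controls, while Trp63 fell, at 101 CPM against 148 CPM in controls. The epithelial markers summed to 360 to 393 CPM with rosiglitazone, against 273 to 285 CPM in controls, and 3 of 4 rose. The pericyte markers summed to 9.38 to 10.2 CPM with rosiglitazone, against 15.1 to 20.7 CPM in controls, and Notch3 fell, at a mean of 8.87 CPM against 17.4 CPM in controls. The part of these markers in the fall of Tagln was not tested.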

How the data were processed

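The authors deposited 1 table of raw counts per NCBI mouse gene ID for the 10 libraries, mapped to samples by their titles. Reads were aligned with STAR to mm10, per the submitters' processing notes; the counting tool, annotation and strand setting are each not given in the sources used here. The labels' protocols name a stranded total RNA kit and speak of poly-A+ RNA. Symbols came from RefSeq (GRCm38.p6), which matched 18057 of 18103 IDs; the 46 others (0.799% of all counts) were kept in the fit.

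Differences were tested with edgeR 4.0.16 in R 4.3.3 (quasi-likelihood, robust, TMM, the default filter on low counts, 5 group means over 10 libraries), with Benjamini-Hochberg adjustment over the 13149 genes tested and a threshold of 0.05. Fold changes are log2, first named group over second, with the SE taken as the fold change over the root of the F statistic. This SE understates the spread where a difference is large and 1 group has few counts, as between the lines. For Tagln it was 0.16 between the lines, and 0.35 with the MEK inhibitor against the same controls. CPM use TMM-scaled totals, and CPM per kb the union of exons in GENCODE M21. Ratios of low counts carry 95% exact binomial intervals, which cover counting error only. Group means are given ± SD. The scripts were checked on simulated counts.

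The members and the gene lists were chosen with earlier results of these data known. Beyond the 10 genes the text names Srf, Mrtfa, Mrtfb, Myocd and, per comparison and related list, up to 3 genes of largest change that passed; counts over 1 of the 4 related lists, and some of its genes, are not reported here; Myh11, Pcsk7 and the marker genes were named besides. Genes alike in pattern were ranked but are not given, because the libraries fall into 2 clusters by line. Replicates exceeded sampling noise (chi-square per gene 5.27 to 7.58, and 16.4 in Py2T-LT controls). DESeq2 1.42.0, other size factors, other filters, a replicate block and leaving out each library were tried.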

Additional observations from a re-analysis of the deposited data

How the results depend on the processing

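Besides the results named beside their genes, calls per list held within 1.5 times under RLE size factors, both other filters, fits of the compared groups alone and DESeq2, except that DESeq2 called 0 sarcomere genes (main 1) with BMP2 plus the MEK inhibitor against controls, no low-count filter gave 1 (main 0) for the combination against the MEK inhibitor, and cytoskeletal targets with rosiglitazone numbered 5 without a filter and 6 with the compared groups alone (main 3). Leaving out each library gave 2 to 5 contractile genes called with the MEK inhibitor (main 4), 3 to 5 with the combination (main 5), 3 to 6 for the combination against the inhibitor (main 5) and 1 to 2 with rosiglitazone (main 2). It gave 5 to 9 cytoskeletal targets with the inhibitor (main 9) and 1 to 6 with rosiglitazone (main 3), 0 to 2 immediate early genes with rosiglitazone (main 1), 0 to 1 sarcomere genes with the combination (main 1) and 1112 to 1915 of all genes with rosiglitazone (main 1737). Signs turned in these ranges for values that did not pass in the full data: with the combination against controls Acta2 from -0.20 to 2.78, Myl9 from -0.46 to 0.0915 and Mrtfb from -0.16 to 0.34; with the combination against the inhibitor Cnn1 from -0.0556 to 0.50 and Srf from -0.0088 to 0.24; with the inhibitor Mrtfa from -0.21 to 0.19 and Mrtfb from -0.38 to 0.12; with rosiglitazone Tpm2 from -0.30 to 0.043, Srf from -0.0851 to 0.15 and Mrtfb from -0.11 to 0.0143; and between the lines Tpm2 from -6e-04 to 0.0941 and Mrtfb from -0.18 to 0.31. The cause was not tested. The requirement of 1 CPM in 2 libraries removed Cnn1. The values of genes outside the 10 were recomputed under alternatives chosen after seeing the data.

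Samples share a replicate number, but no label ties a number to a batch, and deviations of same-numbered libraries correlated at -0.106 to 0.100. With a replicate block, 8091 genes passed between the lines, 2245 with the MEK inhibitor, 5148 with the combination against controls, 5024 against the inhibitor and 1833 with rosiglitazone; the contractile genes called numbered 8, 4, 5, 5 and 2, as without it. Group means under about 1 CPM (Actg2 and Tagln in all 3 Py2T-LT groups, Tnnt2 in Py2T-LT controls, Cnn1 in all 5 groups) and Acta2 in Py2T-LT controls, at 4 and 32 counts, rest on few counts, and differences between such levels were detectable at this depth only when large.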
